A study of Mus musculus with 16 samples.

Results

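Hmgcs1, Idi1, Fdps, Fdft1, Sqle, Lss, Srebf2 and Insig1 are 8 genes of sterol synthesis and of its control by SREBP transcription factors. Their probe sets were taken as those whose only gene symbol in the platform's probe-to-gene table is 1 of these names. This gave 10 of the 45037 probe sets tested, with 2 each for Idi1 and Srebf2 and 1 for every other gene, and the 8 genes stand among 17097 genes named by a probe set of their own. Another 1 probe set names Srebf2 together with other genes and was left out. In RefSeq (GRCm38.p6) Hmgcs1 lies on chromosome 13 from 119690351 to 119708260 and Idi1 on the same chromosome from 8885606 to 8892396. Fdps lies on chromosome 3 (89093588 to 89101967), Fdft1 on chromosome 14 (63145150 to 63181687), Sqle on chromosome 15 (59315092 to 59331193) and Lss on chromosome 10 (76531565 to 76557139). Srebf2 lies on chromosome 15 (82147269 to 82205379) and Insig1 on chromosome 5 (28071412 to 28078662).

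Total RNA of mouse striatum was measured on 16 Affymetrix arrays, 4 in each of 4 groups. DBA/2J and A/J mice (substrains DBA/2JRccHsd and A/JOlaHsd) had received risperidone at 1 mg/kg by intraperitoneal injection once daily for 3 days, and the DBA/2J and A/J control mice carry the label untreated, although the common treatment protocol gives saline by the same route to mice without the drug. All mice were males of 7 to 8 weeks, and no allele or transgene is named. Risperidone is an antipsychotic drug and an antagonist of dopamine D2 and serotonin 5-HT2A receptors. The arrays of a group are labelled biological replicates, and the labels do not say whether an array held RNA of 1 mouse or of several, so the p-values measure the spread between these samples.

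Cells build cholesterol from acetyl-CoA through mevalonate, isoprenoid diphosphates, squalene and lanosterol. When sterols in the endoplasmic reticulum are scarce, the SREBP2 protein encoded by Srebf2 is carried to the Golgi, cut, and enters the nucleus, where it switches on the genes of this pathway. INSIG1 holds the carrier complex back when sterols are abundant. The brain makes its own cholesterol, much of it for myelin, and antipsychotic drugs are known to alter sterol synthesis genes, above all in cultured cells.

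No member was called in any of the 6 comparisons made, where called means an adjusted p under 0.05 in limma with Benjamini-Hochberg adjustment over all 45037 probe sets. The differences were small. In DBA/2J mice they ran from -0.22 for Hmgcs1 to 0.32 for Fdps (log2, risperidone minus control), and in A/J mice from -0.39 for Hmgcs1 to 0.09 for Srebf2. The 95% interval of the difference lay within 1.5-fold either way for 10 of 10 member probe sets in DBA/2J and for 9 of 10 in A/J, where Hmgcs1 was the exception. Among all probe sets, 0.04% were called for risperidone in DBA/2J and 0% in A/J, so a count of 0 among 10 member probe sets is near the background.

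Some arrays stood apart from the rest. Over 49 strain marker probe sets, the share of DBA/2J signal was 94.6% to 101.565% on 3 DBA/2J risperidone arrays and 87.6% on replicate 1, against 96.1% to 103.249% in DBA/2J controls. On A/J risperidone replicates 1, 2 and 4 it was 27.9%, 36.2% and 39.1%, against 0.584% on replicate 3 and -2.30% to 0.944% in A/J controls, so these 3 arrays go against their strain label in part. DBA/2J control replicate 4 had a mean level of ribosomal protein genes of 9.82, against 10.26 to 10.32 on the other DBA/2J control arrays. Array medians lay between 5.66 and 5.71. Striatal projection neuron markers (7 genes) had mean levels of 6.31 to 6.68 in DBA/2J risperidone, 6.28 to 6.47 in A/J risperidone, 5.96 to 6.29 in DBA/2J control and 6.20 to 6.79 in A/J control arrays, above each array's median. Without the 3 mixed A/J arrays, or without all 5 arrays named here, still no member was called; both fits leave 1 A/J risperidone array, which is assumed to vary like the other groups.

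**Figure D1:**
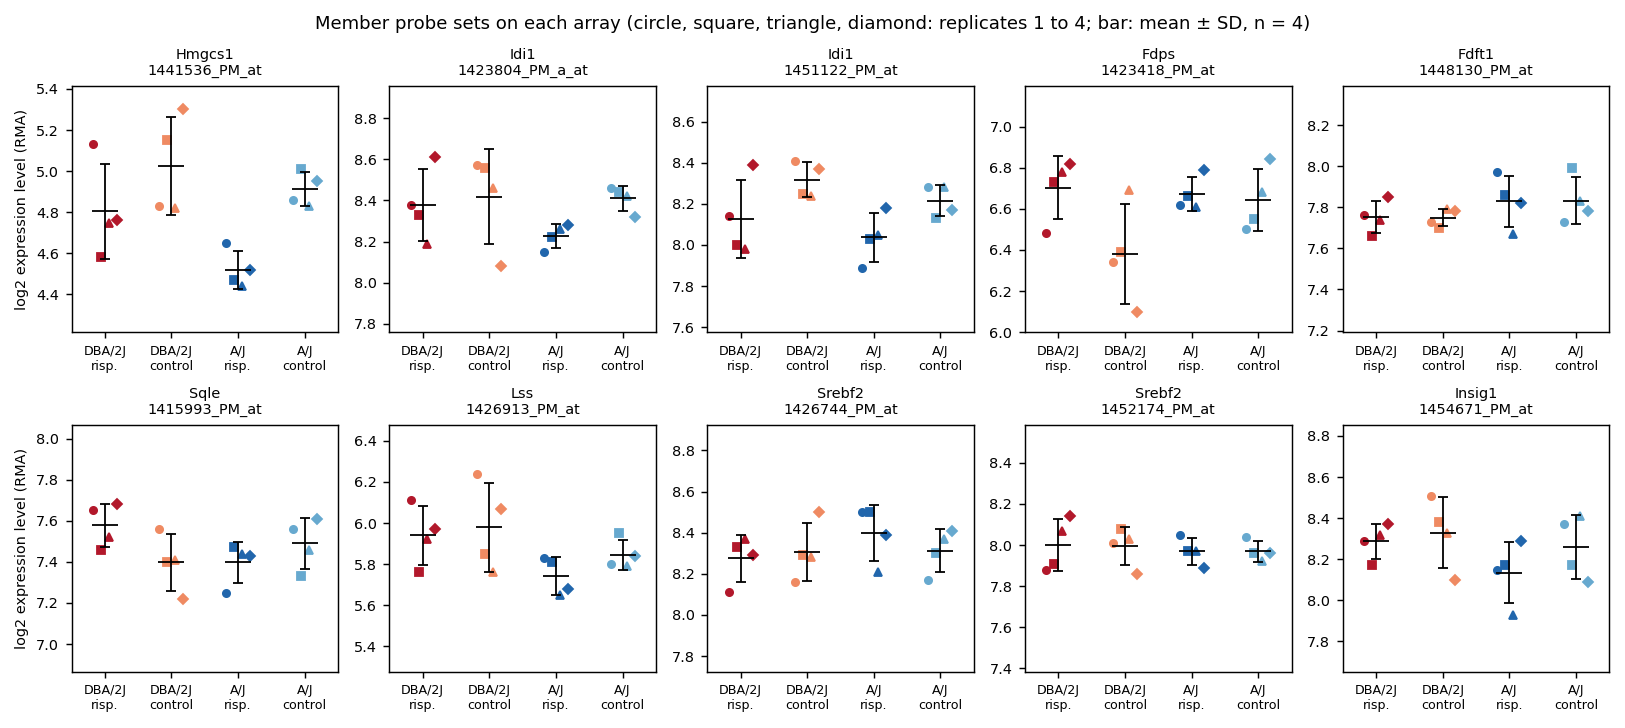
Log2 expression level (RMA) of the 10 member probe sets on each array, in 1 panel per probe set with the same span of the axis. Points are the 4 replicates of a group and bars are mean ± SD (n = 4). The 4 A/J risperidone arrays of Hmgcs1, between 4.44 and 4.65, lie below the 4 A/J control arrays, which lie between 4.83 and 5.01, while for Fdft1 the groups overlap throughout.

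Hmgcs1 encodes the cytosolic synthase that makes HMG-CoA early in the mevalonate pathway, and its level was lower after risperidone in both strains without passing the test. In DBA/2J mice Hmgcs1 measured 5.13, 4.58, 4.75 and 4.76 after risperidone (log2), against 4.83, 5.15, 4.82 and 5.30 in controls. In A/J mice it measured 4.65, 4.47, 4.44 and 4.52 after risperidone, against 4.86, 5.01, 4.83 and 4.95 in controls. The A/J groups did not overlap, and in DBA/2J risperidone replicate 1 lay among the controls. The difference was -0.39 ± 0.12 in A/J (SE, adjusted p = 0.566, limma), a level 1.31-fold lower with a 95% interval of -0.64 to -0.14. In DBA/2J it was -0.22 ± 0.12 (adjusted p = 0.510), and over both strains -0.31 ± 0.08 (adjusted p = 0.434). Without DBA/2J risperidone replicate 1 the DBA/2J difference was -0.33, and without DBA/2J control replicate 4 it was -0.13. Without the 3 mixed arrays the A/J difference was -0.47 ± 0.20 (adjusted p = 0.999). Hmgcs1 was the only member with a mean level (4.82) under the median of all probe sets tested (5.67). The values of its only probe set thus sit in the dim range of the array. How well this probe set follows the Hmgcs1 mRNA was not tested.

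Idi1 encodes the isomerase that turns isopentenyl diphosphate into dimethylallyl diphosphate, and both of its probe sets were lower on average after risperidone, again without passing the test. Probe set 1423804_PM_a_at measured 8.38, 8.33, 8.19 and 8.61 in DBA/2J mice after risperidone, against 8.57, 8.56, 8.46 and 8.08 in DBA/2J controls. Among A/J mice this probe set measured 8.15, 8.22, 8.26 and 8.28 after risperidone, against 8.46, 8.44, 8.42 and 8.32 in controls. Its A/J groups did not overlap, whereas in DBA/2J control replicate 4 was the lowest of the 8 arrays and the groups overlapped. Its difference was -0.18 ± 0.11 in A/J (adjusted p = 0.949, limma) and -0.04 ± 0.11 in DBA/2J (adjusted p = 0.916, limma). The DBA/2J difference was -0.15 without DBA/2J control replicate 4 and turned to 0.02 without DBA/2J risperidone replicate 3. Probe set 1451122_PM_at measured 8.14, 8.00, 7.98 and 8.39 in DBA/2J mice after risperidone, against 8.41, 8.25, 8.24 and 8.37 in controls. A/J mice had levels of 7.89, 8.03, 8.05 and 8.18 after risperidone, against 8.28, 8.13, 8.28 and 8.17 in A/J controls. On this probe set 3 of 4 DBA/2J and 4 of 4 A/J risperidone arrays lay below their strain's control mean, and the groups overlapped in both strains. The differences were -0.19 ± 0.09 in DBA/2J (adjusted p = 0.480) and -0.18 ± 0.09 in A/J (adjusted p = 0.941), with -0.18 ± 0.07 over both strains (adjusted p = 0.602). After subtracting group means, the 2 Idi1 probe sets had a Pearson r of 0.454 with each other over the 16 arrays.

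Hmgcs1 and Idi1 were the genes with a probe set whose A/J groups did not overlap, 2 of 10 member probe sets, both lower. In that contrast 2.08% of all probe sets did not overlap and were lower (4.42% in either direction), and no test was made of the members' share. In DBA/2J 0 of 10 member probe sets had groups that did not overlap, where 4.4% of all probe sets did. The start regions of these genes are shown because SREBP2 and the CCAAT-binding factor NF-Y are known to act at such promoters. Each runs from 250 bases before to 50 after the RefSeq gene start (GRCm38.p6, plus strand), Hmgcs1 at chr13:119690101-119690400 and Idi1 at chr13:8885356-8885655, written 5′ to 3′. Capitals mark TCACCCCA, letters of the classical sterol regulatory element, and ATTGG, which is CCAAT read on the opposite strand.
Hmgcs1: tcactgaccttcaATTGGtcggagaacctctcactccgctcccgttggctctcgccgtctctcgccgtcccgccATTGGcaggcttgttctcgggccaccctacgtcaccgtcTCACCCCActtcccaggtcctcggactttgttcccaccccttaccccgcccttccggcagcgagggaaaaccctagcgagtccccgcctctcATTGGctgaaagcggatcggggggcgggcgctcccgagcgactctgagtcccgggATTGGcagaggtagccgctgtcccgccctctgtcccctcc
Idi1: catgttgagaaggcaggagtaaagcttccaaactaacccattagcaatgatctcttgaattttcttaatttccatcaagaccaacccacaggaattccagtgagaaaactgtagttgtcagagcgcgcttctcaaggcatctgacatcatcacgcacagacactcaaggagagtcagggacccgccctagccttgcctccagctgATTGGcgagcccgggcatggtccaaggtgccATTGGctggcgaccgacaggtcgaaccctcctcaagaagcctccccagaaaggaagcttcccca
Hmgcs1 held TCACCCCA once, at -137 to -130 counted from the first base of the gene as 0, and 4 CCAAT matches. In Idi1 there was no TCACCCCA match in the window and 2 CCAAT matches. RefSeq windows were matched for 5 of 8 members (also Lss, Srebf2 and Insig1). Of these 5, 2 held TCACCCCA (Hmgcs1 and Srebf2), against 1.56% of 32851 windows of 300 bases. CCAAT stood in 5 of 5, against 37.4% of windows, and CACGTG, an E-box, in 1 (Insig1), against 7.15%. Both strands were searched, the matches did not overlap each other, and the motifs were chosen with these sequences in view. A match is a description of letters and not a measured binding site.

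Fdps encodes farnesyl diphosphate synthase, which makes the branch point isoprenoid of sterols and prenylated proteins, and it was the member with the largest positive difference. In DBA/2J mice Fdps measured 6.48, 6.73, 6.78 and 6.82 after risperidone, against 6.34, 6.39, 6.69 and 6.10 in controls. The A/J levels were 6.62, 6.66, 6.61 and 6.79 after risperidone, against 6.50, 6.55, 6.68 and 6.84 in controls. All 4 DBA/2J risperidone arrays lay above the DBA/2J control mean, the groups overlapped through control replicate 3, and control replicate 4 was the lowest of the 16 arrays. The difference was 0.32 ± 0.11 in DBA/2J (adjusted p = 0.333), with an interval of 0.08 to 0.56, and 0.03 ± 0.11 in A/J (adjusted p = 0.997). Without DBA/2J control replicate 4, an array that stood apart, the DBA/2J difference was 0.23. The effect in DBA/2J less that in A/J was 0.30 ± 0.16 (adjusted p = 0.581, limma), so the gap between the strains was not called. Over the alternative fits described below, the A/J difference ran from -0.13 to 0.09 and the gap from 0.20 to 0.48. Fdps was the 1 member with an unadjusted p under 0.05 in DBA/2J, where 10.7% of all probe sets had one. In A/J that member was Hmgcs1, and 5.51% of all probe sets had one.

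**Figure D2:**
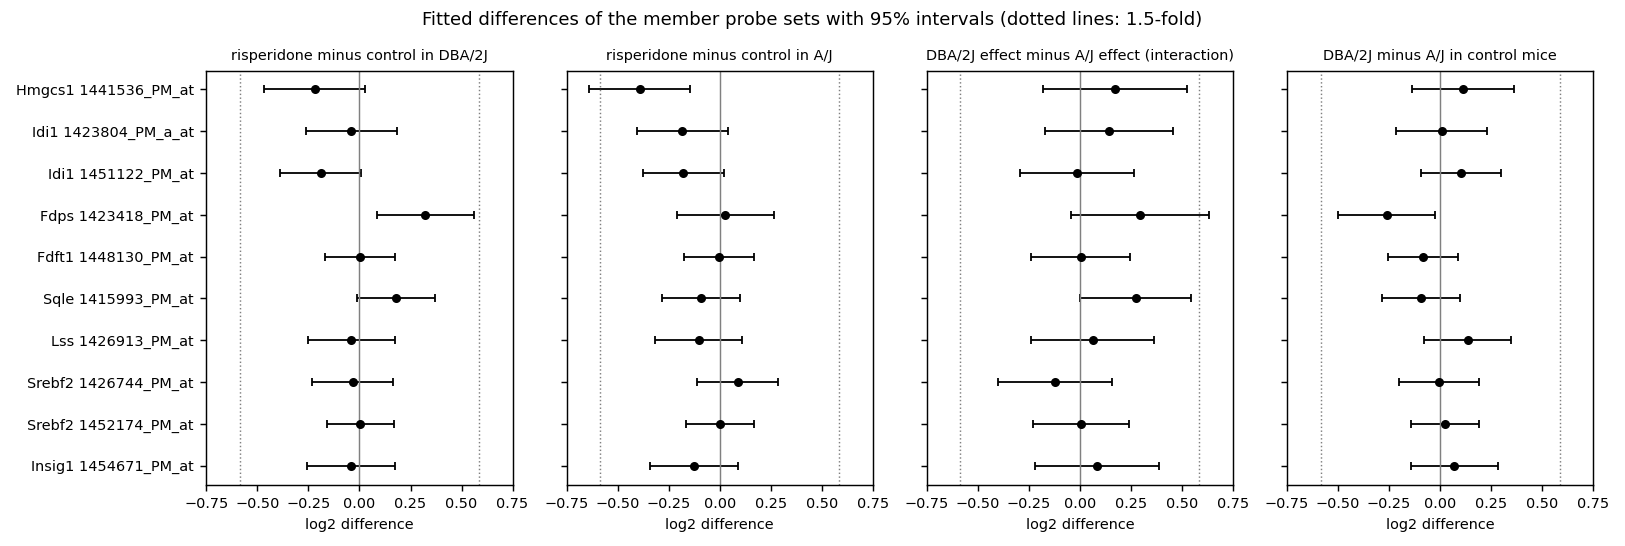
Fitted log2 differences of the 10 member probe sets (points) with 95% intervals (bars) from limma on 16 arrays, for 4 comparisons. The solid line marks no difference and the dotted lines 1.5-fold. Intervals that lie wholly on 1 side of 0 are those of Fdps in DBA/2J, Hmgcs1 in A/J, Sqle in the interaction and Fdps between the control strains, and none of these passed the adjusted threshold.

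Sqle encodes squalene epoxidase, the first oxygen-requiring step of the sterol branch, and its risperidone arrays lay on opposite sides of the control mean in the strains. In DBA/2J mice Sqle measured 7.65, 7.46, 7.52 and 7.68 after risperidone, against 7.56, 7.40, 7.41 and 7.22 in controls. For A/J mice Sqle measured 7.25, 7.47, 7.44 and 7.43 after risperidone, against 7.56, 7.33, 7.46 and 7.61 in controls. All 4 DBA/2J risperidone arrays lay above, and all 4 A/J risperidone arrays below, the control mean of their strain, and the groups overlapped in both strains. The differences were 0.18 ± 0.09 in DBA/2J (adjusted p = 0.485) and -0.09 ± 0.09 in A/J (adjusted p = 0.989). The gap between these effects was 0.27 ± 0.13 (adjusted p = 0.537). It was the only member with an unadjusted p under 0.05 for that gap, where 9.19% of all probe sets had one and 0% were called. Without all 5 arrays in doubt the gap was 0.15 ± 0.17.

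Fdft1 encodes squalene synthase, which commits farnesyl diphosphate to sterols, and its fitted differences after risperidone were near 0. It ran from 7.66 to 7.85 in DBA/2J risperidone and from 7.67 to 7.97 in A/J risperidone mice, against 7.70 to 7.79 in DBA/2J and 7.73 to 7.99 in A/J controls. The effect of risperidone was 0.00 ± 0.08 in both strains, with 2 of 4 risperidone arrays above the control mean in each. Without the 3 mixed arrays the A/J difference of Fdft1 was -0.16. Lss encodes lanosterol synthase, which closes the sterol rings. Its level ran from 5.76 to 6.11 in DBA/2J risperidone and from 5.65 to 5.83 in A/J risperidone mice, against 5.76 to 6.24 in DBA/2J and 5.79 to 5.95 in A/J controls. All 4 A/J risperidone arrays lay below the A/J control mean, with a difference of -0.10 ± 0.10 in A/J (adjusted p = 0.989) and -0.04 ± 0.10 in DBA/2J (adjusted p = 0.912). Without the 3 mixed arrays the A/J difference of Lss was -0.20 ± 0.17.

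Srebf2 was measured by 2 probe sets, whose Pearson r with each other was -0.0895 over the 16 arrays after subtracting group means. On 1426744_PM_at the level ran from 8.11 to 8.37 in DBA/2J risperidone and from 8.21 to 8.50 in A/J risperidone mice, against 8.16 to 8.50 in DBA/2J and 8.17 to 8.41 in A/J controls. The differences were -0.03 ± 0.09 in DBA/2J (adjusted p = 0.925) and 0.09 ± 0.09 in A/J (adjusted p = 0.990), which was -0.10 ± 0.15 without the 3 mixed arrays. On 1452174_PM_at the level ran from 7.88 to 8.14 in DBA/2J risperidone and from 7.89 to 8.05 in A/J risperidone mice, against 7.86 to 8.08 in DBA/2J and 7.92 to 8.04 in A/J controls. There the differences were 0.005 ± 0.08 in DBA/2J and 0.00 ± 0.08 in A/J. Insig1, both a target and a brake of SREBP2, ran from 8.17 to 8.37 in DBA/2J risperidone and from 7.93 to 8.29 in A/J risperidone mice, against 8.10 to 8.51 in DBA/2J and 8.09 to 8.41 in A/J controls. Its differences were -0.04 ± 0.10 in DBA/2J (adjusted p = 0.906) and -0.13 ± 0.10 in A/J (adjusted p = 0.980), and 3 of 4 risperidone arrays lay below the control mean in each strain. Without the 3 mixed arrays the A/J difference of Insig1 was -0.33 ± 0.17 (adjusted p = 0.999), and without A/J risperidone replicate 3, the array with the lowest DBA/2J share in its group, it was -0.06.

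Read over the list, 4 member probe sets were higher and 6 lower after risperidone in DBA/2J mice, with a median difference of -0.04, beside -0.005 over all probe sets. Among A/J mice 2 were higher, 7 lower and 1 at 0, with a median of -0.10 beside 0 over all probe sets; the median was -0.16 without the 3 mixed arrays. Over both strains the median was -0.04 beside 0 (and -0.09 without those arrays). There 3 member probe sets had an unadjusted p under 0.05 (Hmgcs1 and Idi1 1451122_PM_at lower, Fdps higher). The other Idi1 probe set, 1423804_PM_a_at, did not (-0.11 ± 0.07). Of all probe sets 6.9% had one while 0.0266% were called. The effect in DBA/2J less that in A/J had a median of 0.07 over the members, beside -0.005 over all probe sets. That median was 0.16 without the 3 mixed arrays and 0.01 with the oligodendrocyte marker level as a covariate. The contrasts share arrays, so their values stand side by side and are not independent.

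Between the strains no member was called. In control mice the DBA/2J minus A/J differences ran from -0.26 for Fdps to 0.14 for Lss, with a median of 0.02 beside 0.01 over all probe sets, and 3.87% of all probe sets were called. The Lss difference was 0.05 without DBA/2J control replicate 1. Fdps averaged 6.38 ± 0.24 in DBA/2J controls and 6.64 ± 0.15 in A/J controls (SD, n = 4 each), a difference of -0.26 ± 0.11 (SE, adjusted p = 0.233, limma) that was -0.17 without DBA/2J control replicate 4. After risperidone the differences ran from -0.13 for Srebf2 1426744_PM_at to 0.29 for Hmgcs1, with a median of 0.12 beside 0.005, and 0.782% of all probe sets were called. Hmgcs1 averaged 4.81 ± 0.23 in DBA/2J and 4.52 ± 0.09 in A/J mice after risperidone (SD, n = 4 each), with an adjusted p of 0.438, and the difference was 0.18 without DBA/2J risperidone replicate 1. The difference of Srebf2 1426744_PM_at was 0.07 without the 3 mixed arrays. Fdps was the 1 member with an unadjusted p under 0.05 between control strains (17.7% of all probe sets had one), and Hmgcs1 the 1 between risperidone strains (9.43%). The strains' arrays overlapped for 10 of 10 member probe sets in both treatments, where 9.33% of all probe sets did not overlap in control and 7.68% in risperidone mice. No pair of groups was called for any member, so no order of the 4 group means is read from them.

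From array to array the members varied with mixed signs. After subtracting group means, 25 of the 43 pairs of probe sets from different genes had a Pearson r above 0 over the 16 arrays, and the median r was 0.139. The highest was 0.599, between Idi1 1423804_PM_a_at and Sqle, and the lowest was -0.615, between the same Idi1 probe set and Srebf2 1426744_PM_at. Sqle and Srebf2 1426744_PM_at had an r of -0.534. Hmgcs1, read on a dim probe set, had an r of -0.611 with Fdps and of 0.430 with Lss. All values come from arrays normalized together, and these correlations are a description.

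**Figure D3:**
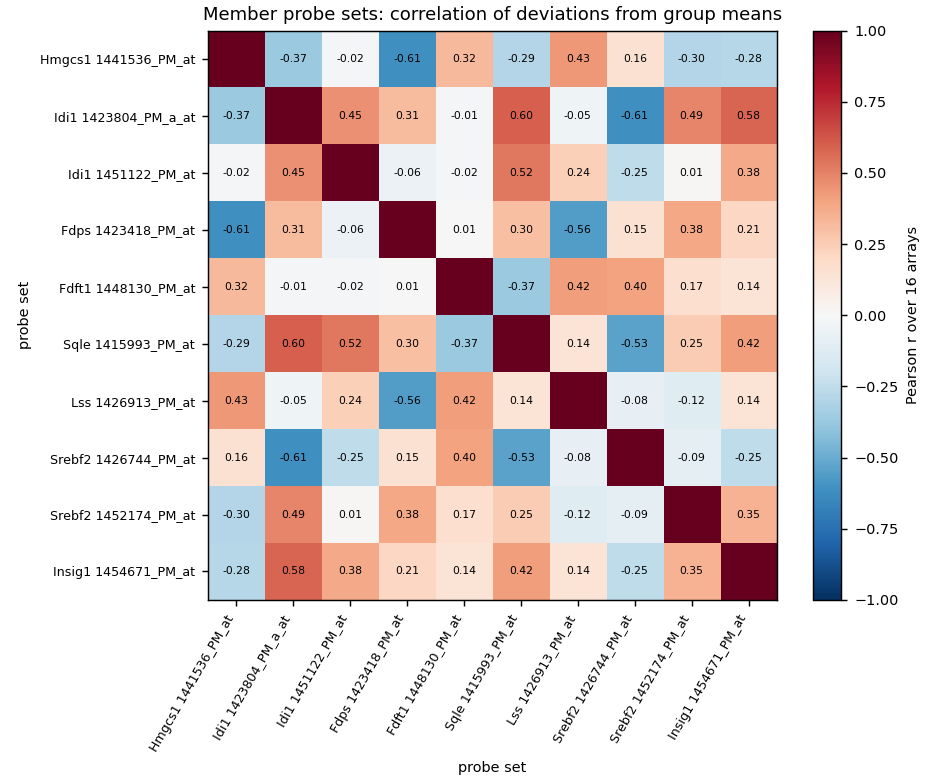
Pearson r between the 10 member probe sets over 16 arrays, after subtracting the mean of each group; red is above 0 and blue below. Signs are mixed, from -0.615 (Idi1 1423804_PM_a_at with Srebf2 1426744_PM_at) to 0.599 (the same Idi1 probe set with Sqle).

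Oligodendrocytes make sterols for myelin, and the mean level of 9 of their markers was correlated with some members. Its r with the member, over the 16 arrays after subtracting group means, was 0.593 and 0.435 for the probe sets of Idi1, 0.535 for Srebf2 1452174_PM_at, 0.477 for Insig1 and -0.521 for Hmgcs1. On the other Srebf2 probe set, 1426744_PM_at, it was -0.171. For Fdps, Sqle, Fdft1 and Lss it was 0.330, 0.137, -0.002 and -0.253. In A/J mice 9 of 9 oligodendrocyte markers had lower means after risperidone (2 with an unadjusted p under 0.05), with mean levels of 8.24 to 8.59 after risperidone and 8.32 to 9.004 in controls. In DBA/2J mice 7 of 9 had higher means, with mean levels of 7.80 to 8.69 after risperidone and 7.81 to 8.21 in controls. With that mean level as a covariate the A/J difference was -0.48 ± 0.12 for Hmgcs1 (adjusted p = 0.425) and -0.10 ± 0.10 for Idi1 1423804_PM_a_at (adjusted p = 0.942). With that covariate no member was called in any of the 6 comparisons. Of the markers of other cell types, 0 were called for risperidone in either strain. In A/J mice 3 of 3 blood markers had higher means after risperidone, each with an unadjusted p under 0.05 and a median difference of 0.65, with mean levels of 9.90 to 10.22 after risperidone and 9.04 to 9.85 in controls. Striatal projection neuron markers had higher means after risperidone for 6 of 7 genes in DBA/2J (3 with an unadjusted p under 0.05, median 0.27) and lower means for 6 of 7 in A/J (median -0.15). Choroid plexus and ependyma markers had higher means for 6 of 7 in DBA/2J (2 with an unadjusted p under 0.05, median 0.26). In the astrocyte, microglia, thalamus and cortex lists the medians lay between -0.08 and 0.18 in both strains. Of these, 1 of 8 astrocyte markers in DBA/2J (higher) and 2 of 7 microglia markers in A/J (lower) had an unadjusted p under 0.05. Among all probe sets 10.7% had one in DBA/2J and 5.51% in A/J. The part of these other lists in the members' values was not tested. In bulk tissue, fewer cells of a type and less RNA per cell cannot be told apart.

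The genes most like the members were sought among 9906 genes by Pearson r with the mean of the 8 members' brightest probe sets, over the 16 arrays after subtracting group means. They were Trmt112 (0.814), Tmco6 (0.813), Oxsm (0.803), Zfp811 (0.783) and Amz2 (0.768). This is a ranking of likeness and no more.

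The wider pathway was read through 6 lists of 46 genes, of which 34 had 66 probe sets of their own; the rest were not analysed here. No gene of these lists was called for risperidone in DBA/2J (0.0643% of all genes were), in A/J (0%), over both strains (0.0526%), or for the gap between the strains (0%). At an unadjusted p under 0.05 stood 7, 4, 2 and 8 of the 66 probe sets in these comparisons, where 10.7%, 5.51%, 6.9% and 9.19% of all probe sets did. In DBA/2J mice 43 of the 66 probe sets were higher and 23 lower, with a median of 0.04. Among A/J mice 26 were higher and 39 lower, with a median of -0.04. The smallest p in each list belonged in DBA/2J to Npc2, a lysosomal cholesterol carrier (0.30 ± 0.10, adjusted p = 0.311), to Me1, the malic enzyme that supplies NADPH (0.23 ± 0.08, adjusted p = 0.332), to the lipid carrier Apoe (0.29 ± 0.11, adjusted p = 0.378), and, with differences of 0.22, 0.24 and 0.09, to Sc5d, Insig2 and Mvk. Without DBA/2J control replicate 4 the difference was 0.08 for Insig2 and 0.17 for Apoe, and without DBA/2J control replicate 1 it was 0.02 for Mvk. For A/J they were Mvd, the mevalonate diphosphate decarboxylase (-0.25 ± 0.09, adjusted p = 0.808), Acss2, which makes acetyl-CoA from acetate (-0.23 ± 0.09, adjusted p = 0.808), and Cyp51, Insig2, Npc2 and Abcg1, between -0.21 and 0.13. Without the 3 mixed arrays the A/J difference was -0.32 for Cyp51 (-0.16 as reported) and -0.07 for Insig2 (-0.14 as reported), and without A/J control replicate 1 it was -0.12 for Npc2 (-0.21 as reported). Over both strains they were Ggps1, Sc5d, Rnf139, Npc2, Acss2 and Mylip, between -0.15 and 0.13. For the gap between the strains they were Me1 (0.39 ± 0.11, adjusted p = 0.365), Apoe (0.41 ± 0.16), Npc2 (0.40 ± 0.14), Mvd, Sc5d and Insig2, the last 3 between 0.22 and 0.27. Without DBA/2J control replicate 4 the gap was 0.12 for Mvd, and without the 3 mixed arrays it was 0.42 for Sc5d. Each gene stands for its probe set with the smallest p, which changed between comparisons. Npc2 was read on 1448513_PM_a_at in A/J and on 1416901_PM_at otherwise. Insig2 was read on 1417981_PM_at in DBA/2J and on 1417982_PM_at in A/J and for the gap. Sc5d was read on 1451457_PM_at over both strains and on 1424709_PM_at otherwise. On its brightest probe set, 1417980_PM_a_at, Insig2 measured 7.82 to 8.06 in DBA/2J risperidone and 7.71 to 8.15 in DBA/2J control mice.

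In control mice 8 of these 34 genes, and no member, were called between the strains, 7 lower and 1 higher in DBA/2J, where 5.31% of all genes were called and 3.07% were lower. Of the 9 fatty acid genes with probe sets, 5 were called lower and 0 higher. Scd1, which desaturates stearoyl-CoA, measured 8.46, 8.37, 8.44 and 7.75 in DBA/2J controls, against 8.76, 8.90, 9.14 and 8.70 in A/J controls on 1415964_PM_at. The groups did not overlap, and the difference was -0.62 ± 0.15 (adjusted p = 0.0198), with -0.55 ± 0.13 on its second probe set (adjusted p = 0.0210). Fads2, a fatty acid desaturase, differed by -0.45 ± 0.10 on 1449325_PM_at (adjusted p = 0.00941), but by -0.16 and -0.05 on its other probe sets, which were not called. Me1 differed by -0.34 ± 0.08 on 1430307_PM_a_at (adjusted p = 0.0209) and by -0.09 on its other probe set. Acaca (-0.50) and Fads1 (-0.36), named after their values were seen, were the other genes of that list, each called on 1 of 2 probe sets. Outside it, Npc2 (-0.38, adjusted p = 0.0359) and Sc5d, a late sterol desaturase (-0.35, adjusted p = 0.0225), were lower (limma). Hsd17b7, a late sterol reductase, was higher (0.56, adjusted p = 0.0225, limma). Each was called on 1 of 3 probe sets. Without DBA/2J control replicate 4 the difference was -0.45 for Scd1 on 1415964_PM_at, -0.30 for Npc2, 0.45 for Hsd17b7 and -0.31 for Me1. For Fads2 (-0.495) and Sc5d (-0.39) it was larger in size than reported. The called Hsd17b7 probe set, 1417871_PM_at, was dim beside the median of all probe sets (5.67). It measured 5.17 to 5.73 in DBA/2J and 4.76 to 4.93 in A/J controls. The control groups overlapped on 1448865_PM_at (6.31 to 6.35 in DBA/2J, 6.15 to 6.39 in A/J). They also overlapped on 1440057_PM_at (5.45 to 5.58 in DBA/2J, 5.34 to 5.59 in A/J). In lists with no call the smallest p belonged to Mvk, Insig2 and Apoe, with differences of -0.17, -0.18 and -0.25. Without DBA/2J control replicate 4 that of Apoe was -0.13, and without DBA/2J control replicate 1 that of Mvk was -0.10. In DBA/2J minus A/J after risperidone no gene of the lists was called (1.02% of all genes were). The smallest p was that of Sc5d (-0.31 ± 0.08, adjusted p = 0.106, limma). It was followed in their lists by Me1, Mbtps1, Stard4, Apoe and Mvd with differences between -0.21 and 0.25. Me1 stands there on 1416632_PM_at (0.25), not on the probe set called in control mice. On 1430307_PM_a_at Me1 measured 7.21 to 7.39 in DBA/2J and 7.19 to 7.34 in A/J mice after risperidone. The A/J side of this contrast holds the 3 arrays with mixed strain markers. Without them the difference was -0.39 for Sc5d, -0.365 for Stard4, 0.435 for Mbtps1 and 0.36 for Me1 on 1416632_PM_at. It was 0.185 for Apoe and 0.09 for Mvd. Whether risperidone changed the number of calls between the strains was not tested.

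Some cell type markers were also called between these control arrays, where 3.87% of all probe sets were called. Oligodendrocyte markers had lower means in DBA/2J for 9 of 9 genes, of which 2 were called, with mean levels of 7.81 to 8.21 in DBA/2J controls and 8.32 to 9.004 in A/J controls. Microglia markers had lower means for 7 of 7 (2 called), at 6.08 to 6.32 in DBA/2J and 6.59 to 6.76 in A/J. Thalamus markers had lower means for 6 of 6, with 1 called (6.10 to 6.34 in DBA/2J, 6.21 to 7.72 in A/J), and striatal projection neuron markers for 6 of 7, with 2 called (5.96 to 6.29 in DBA/2J, 6.20 to 6.79 in A/J). Astrocyte markers had higher means in DBA/2J for 4 and lower for 4 of 8 (1 called, lower), choroid plexus and ependyma markers lower for 6 of 7, cortex markers lower for 3 of 4 and blood markers higher for 2 of 3, with 0 called in the last 3 lists. With the oligodendrocyte marker level as a covariate 0 of the 34 genes were called (limma; Fads2 differed by -0.40, adjusted p = 0.193, and Scd1 by -0.21, adjusted p = 0.654). Under that covariate Npc2 differed by -0.18, while Sc5d (-0.31, adjusted p = 0.283) and Hsd17b7 (0.52, adjusted p = 0.256) had differences close to those reported, with larger standard errors. The count was 3, 5 and 4 without DBA/2J control replicate 1, 2 or 4, and 5, 1 and 4 without A/J control replicate 2, 3 or 4. The share of all genes called was not counted in these fits or with the covariate. It is therefore not known whether calls fell alike over all genes. The covariate did not overlap between the control strains, so it cannot be fully told apart from strain.

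**Figure D4:**
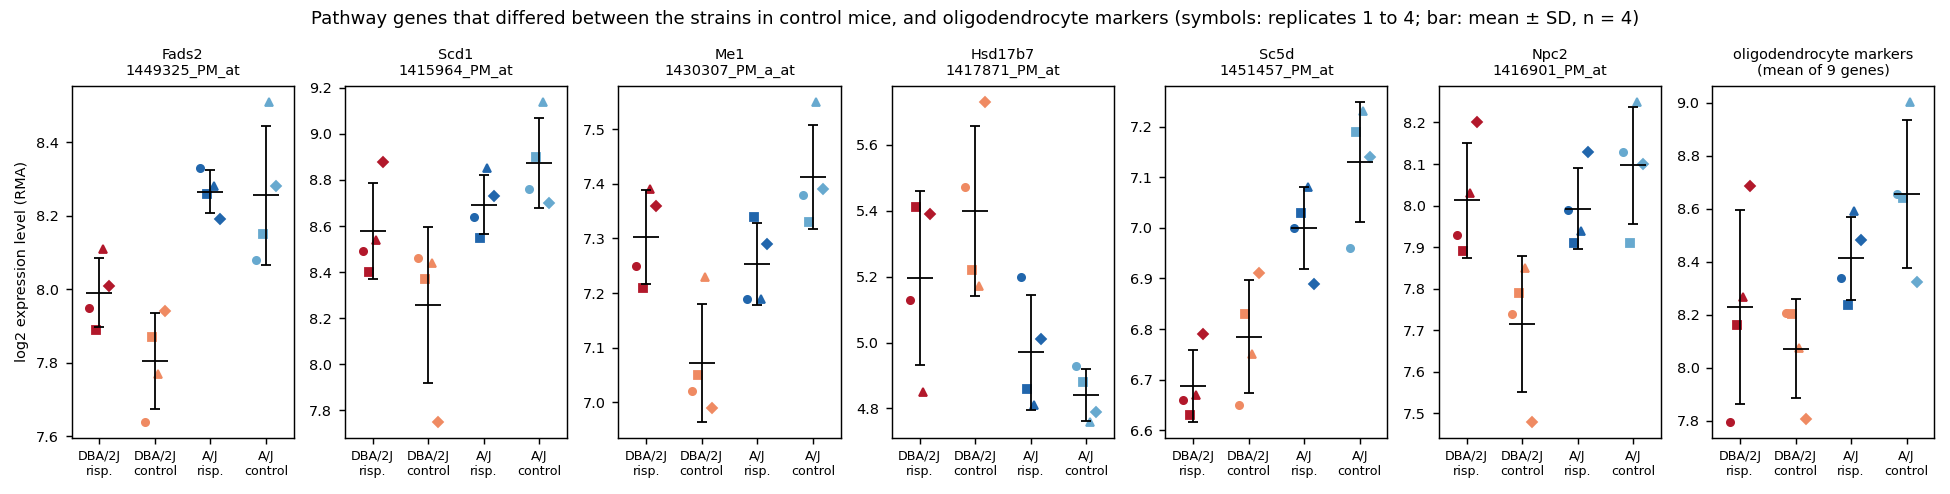
Log2 expression level (RMA) on each array of 6 pathway genes called between the strains in control mice, and the mean level of 9 oligodendrocyte markers. Points are replicates and bars are mean ± SD (n = 4). In control mice Scd1 lies at 7.75 to 8.46 in DBA/2J and 8.70 to 9.14 in A/J. Hsd17b7 lies higher in DBA/2J on the probe set shown. The oligodendrocyte level lies at 7.81 to 8.21 in DBA/2J and 8.32 to 9.004 in A/J.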

How the data were processed

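Striatal RNA was measured on Affymetrix mouse arrays of a perfect-match design. The deposited value of each probe set is a log2 level that the authors obtained with RMA, per the submitters' processing notes (version not given in the sources used here), and were used as deposited. Scanner files were not used here, so background and detection could not be set. The table holds 45141 probe sets, among them 104 array controls, which were not tested. Gene names came from the platform's table: 28898 probe sets name 1 gene, 551 several and 15588 none, and 28689 matched GRCm38.p6 by Entrez ID with 0 symbols changed.

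A model with 4 group means was fitted to all 16 arrays in R 4.3.3 with limma 3.58.1 (lmFit, eBayes), with two-sided tests and Benjamini-Hochberg adjustment over 45037 probe sets in each of 6 comparisons, and was tested on simulated data. Figures used matplotlib 3.10.9. The number of arrays, 4 per group, limits the precision. Strain markers differed between control strains by at least 1.5 (log2), with a level of at least 7 and an adjusted p under 0.01; control arrays were scored with 46 to 49 markers chosen without them. Of 57 cell type markers in 8 lists, 51 had a probe set.

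Members, lists and array checks were chosen with earlier results of these data known. Named pathway genes are, per list and comparison, up to 3 called genes with the smallest p or, where none was called, the 1 with the smallest p. Alternatives were a second quantile normalization, a filter on dim probe sets at the median level, only the brightest probe set of a gene, trend and robust eBayes, array weights, the replicate block, only the groups compared, leaving out each array, 3 or 5 arrays, and the strain share or oligodendrocyte level as a covariate.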

Additional observations from a re-analysis of the deposited data

Results flagged for a closer look

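Within groups of 4 arrays, an array was singled out where its gap to the nearest other array, divided by the group's range, exceeded Dixon's 95% critical value, which chance does in about 1 of 20 groups. None of the 40 member groups held such an array, and 4 of 88 groups of the named pathway probe sets did, a share near chance. Insig2 (1417981_PM_at) was 6.94 on DBA/2J control replicate 4, against 7.54 to 7.61 on the other DBA/2J control arrays. The same probe set was 7.44 on A/J control replicate 4, against 7.65 to 7.68 on the others. Cyp51 (1422533_PM_at) was 5.20 on A/J control replicate 1, against 5.24 on each of the others, a gap of the size of the rounding of the values. Scd1 (1415964_PM_at) was 7.75 on DBA/2J control replicate 4, against 8.37 to 8.46 on the others.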

How the results depend on the processing

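No member probe set was called under any alternative in any comparison (0 of 1562 values, limma; the unadjusted counts were 1, 1, 3, 1, 1 and 1 in the 6 comparisons as reported). Of these values 93 turned in sign, each with a reported size of at most 0.14 and a turned size of at most 0.19; a turn of an uncalled value was not counted as a reversal unless both 95% intervals exclude 0, and 0 met this. Leaving out 1 array at a time, the member median ran from -0.05 to 0.01 for risperidone in DBA/2J, -0.12 to -0.06 in A/J, -0.05 to -0.01 over both, 0.0225 to 0.125 for the gap between the effects, -0.001 to 0.05 between control strains and 0.0375 to 0.15 between risperidone strains; members called stayed at 0 to 0, pathway genes at 0 to 0 except 1 to 8 between control strains. Array weights gave medians of 0.0073 for the gap and 0.073 between control strains. Without 3 mixed A/J arrays the medians were -0.16 in A/J, -0.088 over both and 0.16 for the gap; without 5 arrays they were -0.16, -0.10 and 0.16. The oligodendrocyte covariate gave 0.0055 for the gap. Pathway genes called between control strains (8 as reported) numbered 1 with only the arrays compared, 3 without 3 arrays, 2 without 5 arrays, 0 with the oligodendrocyte covariate and 5 with 1 probe set per gene; between risperidone strains the filter on dim probe sets and array weights each gave 1 (0 as reported). The share of all genes called was not counted under these alternatives, and the cause of these changes was not tested. The labels do not say whether replicate numbers pair the arrays, and 1 or 2 of 4 same-number correlations exceeded 0.1 in each comparison. Their means were 0.074 for risperidone in DBA/2J, 0.049 in A/J, 0.056 between control strains and 0.025 between risperidone strains. The means of the other pairs were -0.025, -0.016, -0.020 and -0.008. With 4 values each, these cannot settle whether arrays were paired. With the replicate block 0 members and 7 pathway genes between control strains were called.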
